A study of Mus musculus with 6 samples.

Results

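The genes described here are 10 components of corticosteroid signalling measured in mouse prefrontal cortex: the receptors Nr3c1 and Nr3c2, the receptor co-chaperones Fkbp5 and Fkbp4, the hormone-activating enzyme Hsd11b1, the corticotropin-releasing hormone receptor Crhr1, and the glucocorticoid-responsive genes Sgk1, Tsc22d3, Cdkn1a and Sult1a1. They were taken by name from a table of 23284 genes, in which all 10 had a row, and the comparison asks whether living alone leaves a stress hormone signature in these transcripts. RNA was sequenced from 3 single-housed and 3 group-housed samples of wild-type C57BL/6 mice aged 8 to 10 weeks, after 6 days of housing. Both groups shared strain, genotype, age and tissue, and no treatment other than housing is named. The labels give neither the sex of the animals, nor the number of mice per group cage, nor whether a library held 1 mouse or several. The p-values below therefore set the housing difference against the scatter of these samples only, and that scatter may be technical. All 10 genes passed the filter on low counts, as did 15258 genes in all.

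Corticosterone, the main glucocorticoid of mice, is released by the adrenal gland at the end of a hormonal chain that begins with corticotropin-releasing hormone. In brain cells it binds the mineralocorticoid receptor with high affinity and the glucocorticoid receptor with lower affinity, so that the glucocorticoid receptor is occupied mostly at the daily peak and during stress. The bound receptors enter the nucleus and act on genes near DNA elements made of paired, inverted 6-base arms, and several of the induced genes, Fkbp5 among them, serve as transcript readouts of hormone exposure. In bulk tissue such as this, fewer cells of a type and less RNA per cell cannot be told apart.

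The start regions of the responsive genes were searched for the receptor's element, and 4 of the windows that hold its letters are printed. Windows from 250 bases before to 50 bases after the annotated starts (RefSeq, GRCm38.p6) were on hand for 9 of the 10 genes. The full palindrome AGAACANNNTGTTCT, which reads the same on both strands, was found in 3 of 32851 windows (0.00913%), and in 0 of the 23 other glucocorticoid-induced genes with a window. Among those 3 windows was 1 of Sgk1, with the match at positions −189 to −175 relative to the start. Its single arm AGAACA, searched on both strands, was in 19% of all windows and in at least 1 window of 21.3% of all genes. It was found in 3 of the 9 genes, Sgk1, Tsc22d3 and Sult1a1, and in 2 of the 23 others, Bcl6 and Fam107a. A looser form, GNACANNNTGTNC, which overlaps both of these, was in 0.475% of windows and 0.537% of genes. It was found in 1 of the 9 genes, Sgk1, and in 3 of the 23 others, Mt1, Map3k6 and Fam107a. Capitals mark every match to these forms, and each window is written 5′ to 3′ along the gene's own strand.
Sgk1, chr10:21993640-21993939, plus strand: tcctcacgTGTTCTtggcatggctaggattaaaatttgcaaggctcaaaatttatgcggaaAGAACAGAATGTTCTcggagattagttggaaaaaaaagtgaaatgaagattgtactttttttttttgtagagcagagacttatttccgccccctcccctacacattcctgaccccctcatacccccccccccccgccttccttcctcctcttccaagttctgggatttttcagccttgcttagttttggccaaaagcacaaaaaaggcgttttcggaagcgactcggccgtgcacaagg
Tsc22d3, chrX:140600473-140600772, minus strand: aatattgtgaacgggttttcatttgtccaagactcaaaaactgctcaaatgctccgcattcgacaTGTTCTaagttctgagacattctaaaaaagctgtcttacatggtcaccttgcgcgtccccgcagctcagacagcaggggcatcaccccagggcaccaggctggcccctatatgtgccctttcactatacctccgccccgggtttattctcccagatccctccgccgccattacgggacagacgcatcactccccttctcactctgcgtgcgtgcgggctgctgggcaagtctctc
Sult1a1, chr7:126676369-126676668, minus strand: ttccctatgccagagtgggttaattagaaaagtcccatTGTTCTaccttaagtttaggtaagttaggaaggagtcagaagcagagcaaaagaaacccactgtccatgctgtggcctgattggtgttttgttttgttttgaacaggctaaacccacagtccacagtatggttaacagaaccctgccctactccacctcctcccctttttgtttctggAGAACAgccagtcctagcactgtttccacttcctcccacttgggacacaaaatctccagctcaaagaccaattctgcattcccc
Fam107a, chr14:8309730-8310029, minus strand: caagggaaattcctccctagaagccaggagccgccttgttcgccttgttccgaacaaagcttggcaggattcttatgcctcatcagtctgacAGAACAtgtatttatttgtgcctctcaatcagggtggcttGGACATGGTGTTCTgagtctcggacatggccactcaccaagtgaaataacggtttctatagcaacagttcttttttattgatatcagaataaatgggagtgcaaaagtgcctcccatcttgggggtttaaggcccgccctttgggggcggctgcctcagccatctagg
Sgk1 has 6 such windows and Tsc22d3 and Fam107a have 3 each, 1 for each annotated start, and the counts below do not separate the starts. A match is a description of the letters and not a measured binding site.

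Total counts ranged from 32902303 to 33428512 in single-housed and from 25858355 to 32088512 in group-housed libraries. Markers of cortical excitatory neurons (8 genes) summed to between 5944 and 6502 CPM (counts scaled to a common library total with TMM factors) in single-housed and between 5711 and 6751 CPM in the group-housed libraries, so the defining neurons of the labelled tissue were present in every library. Markers of tissue beside the cortex differed between libraries, and their part in the results below was not tested except where values within sets of libraries are given. Striatal markers (13 genes) summed to 1898, 915 and 304 CPM in single-housed replicates 1, 2 and 3 and to 877, 337 and 378 CPM in group-housed replicates 1, 2 and 3. The striatal gene Drd2 was at 47.0, 17.2 and 0.870 CPM in the single-housed and at 16.2, 1.01 and 2.57 CPM in the group-housed libraries, in the same order. Oligodendrocyte markers (10 genes) summed to 4548, 4368 and 2162 CPM in the single-housed and to 5863, 2130 and 3390 CPM in the group-housed libraries. Single-housed replicates 1 and 2 and group-housed replicate 1 were therefore the 3 libraries highest in both lists, and they are called the striatum-rich libraries below. These 3 also had the lowest sums of excitatory neuron markers, at 5944, 5981 and 5711 CPM in that order. The sums were 6502, 6751 and 6531 CPM in single-housed replicate 3 and group-housed replicates 2 and 3. Group-housed replicate 1 also had the lowest total count, at 25858355, and the lowest sum of excitatory neuron markers, at 5711 CPM.

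None of the 10 genes changed with housing past the threshold. In edgeR's quasi-likelihood test with Benjamini-Hochberg adjustment over all genes, 0 of 10 passed an adjusted p of 0.05, against 0% of all genes tested, of which 238 had an unadjusted p under 0.05. DESeq2 called 8 of all genes, and both DESeq2 and limma-voom called 0 of the 10. At an unadjusted p under 0.05 there were 2, Nr3c2 and Cdkn1a, where 1.56% of all genes reached that level, 0.832% on the higher and 0.727% on the lower side in single-housed mice. The groups did not overlap for 1 of the 10, Nr3c2, against 4.86% of all genes (2.46% higher and 2.4% lower). By direction, 4 of the 10 had a higher and 6 a lower fitted level in the single-housed mice, with a median log2 difference of −0.062, against 0.0015 over all genes.

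**Figure D1:**
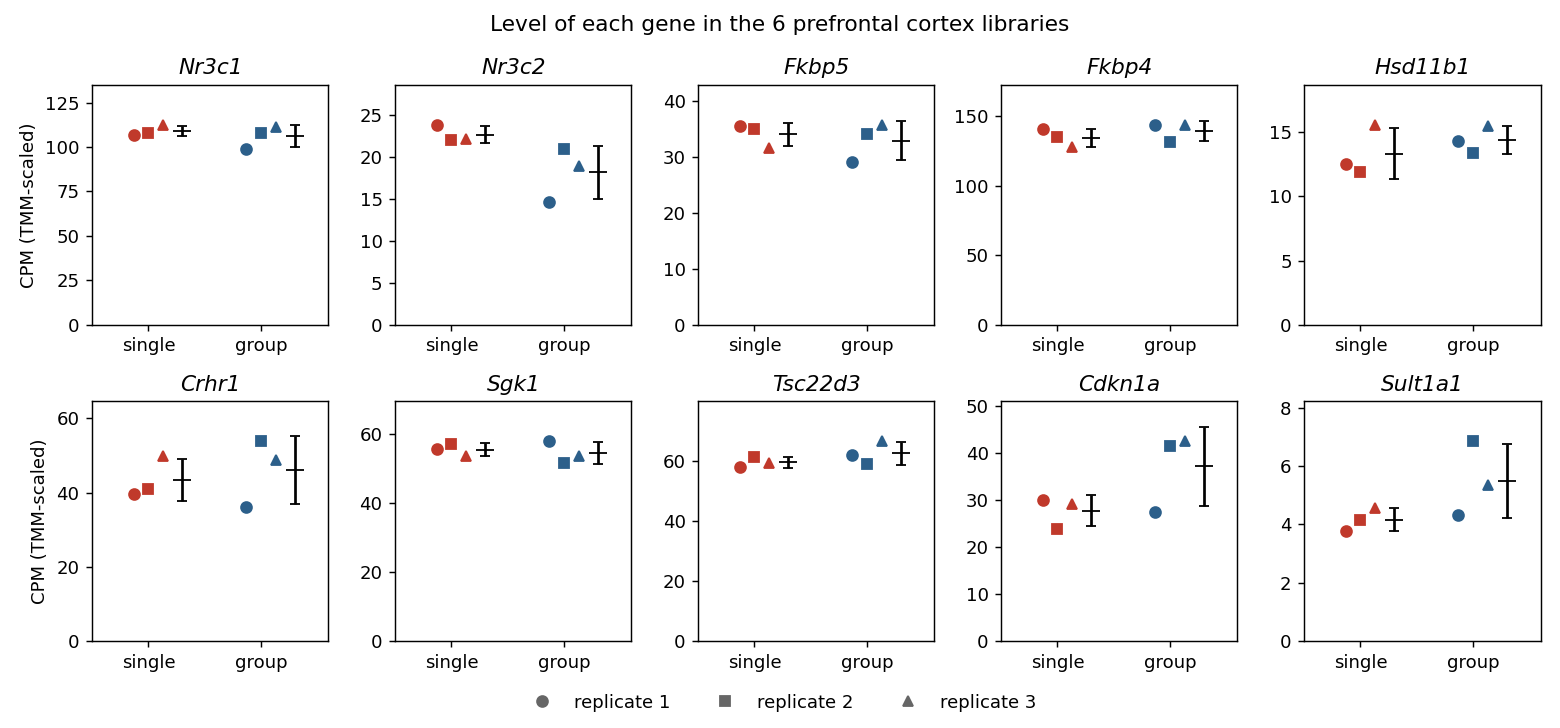
CPM (TMM-scaled, linear axis from 0) of the 10 genes in each library, single-housed in red on the left and group-housed in blue on the right of each panel, with the group mean ± SD (n = 3 each) as a black bar beside the points. Nr3c2 is the panel in which every single-housed library lies above every group-housed library, and Cdkn1a and Sult1a1 have 2 group-housed libraries above all 3 single-housed libraries.

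Nr3c1 encodes the glucocorticoid receptor and lies on chromosome 18. It was at 107, 108 and 112 CPM in the single-housed and at 99.0, 108 and 111 CPM in the group-housed libraries, given as replicates 1, 2 and 3 of each group here and below. The groups overlapped, and the lowest library was group-housed replicate 1. The log2 difference was 0.040 (SE 0.0717, n = 3 each), with a 95% interval of the fold from 0.919 to 1.15. Receptor transcript therefore did not differ beyond the scatter of the replicates.

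Nr3c2 (chromosome 8, 79426407 to 79767538, plus strand, in mm9, the build of all gene positions given here outside the start regions) encodes the mineralocorticoid receptor. It was at 23.9, 22.1 and 22.1 CPM in the single-housed and at 14.7, 21.0 and 18.9 CPM in the group-housed libraries. All 3 single-housed libraries lay above all 3 group-housed libraries, which was so for 2.46% of all genes in that direction, and group-housed replicate 1 was the lowest by far. Nr3c2 averaged 22.7 ± 1.03 CPM with single housing, against 18.2 ± 3.21 CPM with group housing (SD, n = 3 each). The log2 difference was 0.32 (SE 0.130; fold 1.25, 95% interval 1.01 to 1.53; edgeR adjusted p = 1). Without group-housed replicate 1 the difference was 0.19, and without group-housed replicate 2 it was 0.43. With the mean of the striatal markers as a covariate it was 0.37 (SE 0.139).

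Within the striatum-rich libraries Nr3c2 was at 23.9 and 22.1 CPM in the single-housed against 14.7 CPM in the group-housed library, and within the other 3 it was at 22.1 CPM against 21.0 and 18.9 CPM. Since every single-housed library lay above every group-housed library, the direction had to be the same within both sets and adds no information. The gap was smaller in the second set, where the fitted log2 difference was 0.15 (SE 0.168, 1 library against 2). Hippocampal tissue is known for high Nr3c2, so 9 hippocampal genes, chosen after the values of Nr3c2 were seen, were summed. They gave 37.0, 35.4 and 31.7 CPM in the single-housed and 32.3, 31.4 and 33.3 CPM in the group-housed libraries, and the part of such tissue in the Nr3c2 values was not tested.

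The balance of the receptors was read as the ratio of their reads per kilobase of exon within a library, which library scaling does not affect. Nr3c2 relative to Nr3c1 was 0.346, 0.317 and 0.305 in the single-housed and 0.230, 0.301 and 0.264 in the group-housed libraries. Every single-housed ratio was above every group-housed ratio, although the lowest single-housed and highest group-housed values were close. The ratio averaged 0.323 ± 0.0213 with single housing, against 0.265 ± 0.0357 with group housing (SD, n = 3 each), a 1.22-fold difference (two-sided exact permutation test, p = 0.1, and p = 0.2 after Benjamini-Hochberg adjustment over the 2 ratios tested). With 3 libraries against 3 no smaller p than 0.1 can be reached. Without group-housed replicate 1 the log2 difference of the ratio was 0.19, and without group-housed replicate 2 it was 0.39. Without the 3 striatum-rich libraries it was 0.11, against 0.29 with all libraries.

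**Figure D2:**
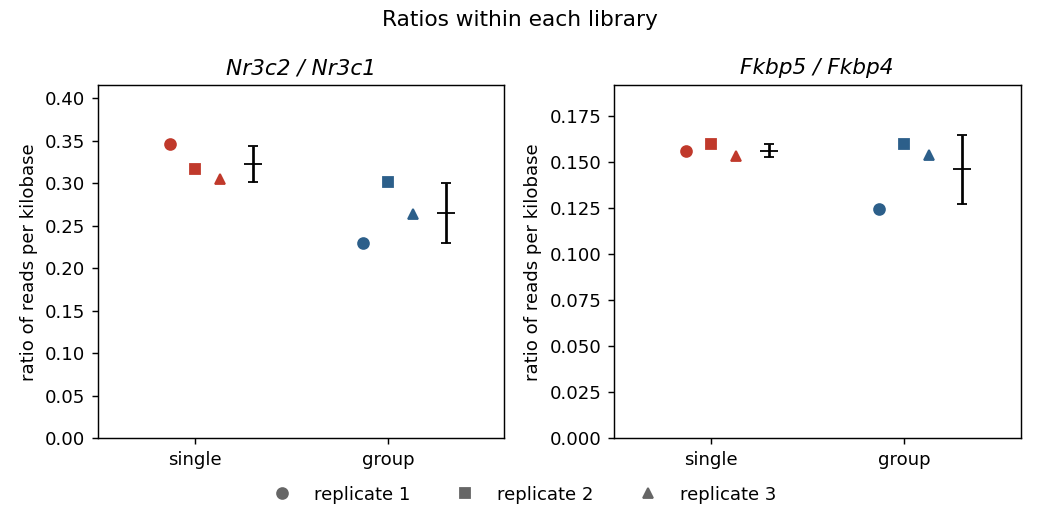
Ratio of reads per kilobase of Nr3c2 to Nr3c1 (left) and of Fkbp5 to Fkbp4 (right) in each library, on linear axes from 0, single-housed left of group-housed, with the mean ± SD as a black bar. The receptor ratios are 0.305 to 0.346 in single-housed and 0.230 to 0.301 in group-housed libraries, while the co-chaperone ratios overlap, with group-housed replicate 1 the lowest in both panels.

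The co-chaperones bind the unliganded receptor together with heat shock protein 90. Fkbp5 (chromosome 17, 28536040 to 28623057, minus strand) encodes FKBP51, which lowers hormone binding and is itself induced by the activated receptor, closing a feedback loop. It was at 35.5, 34.9 and 31.7 CPM in the single-housed and at 29.0, 34.0 and 35.7 CPM in the group-housed libraries. The groups overlapped fully, and both the lowest and the highest library were group-housed. The log2 difference was 0.047 (SE 0.0988), and the 95% interval of the fold ran from 0.884 to 1.21.

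Fkbp4 (chromosome 6, 128380125 to 128388649, minus strand) encodes FKBP52, which favours transport of the receptor to the nucleus. It was at 141, 135 and 128 CPM in the single-housed and at 144, 131 and 144 CPM in the group-housed libraries, with overlapping groups and a log2 difference of −0.054 (SE 0.0736, fold interval 0.858 to 1.08). The ratio of Fkbp5 to Fkbp4 in reads per kilobase was 0.156, 0.160 and 0.153 in the single-housed and 0.125, 0.160 and 0.154 in the group-housed libraries. The groups overlapped (two-sided exact permutation test, p = 0.7, and 0.7 after adjustment over the 2 ratios), and the log2 difference of 0.11 became −0.0049 without group-housed replicate 1.

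Hsd11b1 (chromosome 1, 195047835 to 195090239, minus strand) encodes the enzyme that regenerates active corticosterone from its inert 11-keto form inside cells. It was at 12.5, 11.9 and 15.6 CPM in the single-housed and at 14.3, 13.4 and 15.5 CPM in the group-housed libraries. Single-housed replicates 1 and 2 were the lowest of the 6 and single-housed replicate 3 the highest, so the groups overlapped (log2 difference −0.11, SE 0.124). Hsd11b2, which encodes the opposing enzyme that inactivates corticosterone, had 0, 0 and 1 counts in the single-housed and 0, 1 and 0 counts in the group-housed libraries. A count of 0 allows up to 3 counts, or 0.0897 to 0.116 CPM of the library total, a limit that covers counting error only.

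Crhr1 (chromosome 11, 103994196 to 104036832, plus strand) encodes the main brain receptor for corticotropin-releasing hormone. It was at 39.7, 40.9 and 49.9 CPM in the single-housed and at 36.1, 53.8 and 48.8 CPM in the group-housed libraries. The 3 striatum-rich libraries were the 3 lowest, whatever their housing, and the other 3 were the highest. Within the striatum-rich libraries the single-housed values were 39.7 and 40.9 CPM against 36.1 CPM in the group-housed one, and within the others 49.9 CPM stood against 53.8 and 48.8 CPM. The log2 difference for housing was −0.089 (SE 0.150), and with the mean of the striatal markers as a covariate it was 0.074 (SE 0.103). Crh, the gene of the peptide itself, averaged 5.07 ± 1.23 CPM with single housing, against 5.01 ± 0.501 CPM with group housing (SD, n = 3 each; log2 difference 0.015, SE 0.190).

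The direct targets are the usual readout of receptor activity. Sgk1 (chromosome 10, 21601990 to 21719708, plus strand), whose start region holds the full palindrome printed above, encodes a kinase that regulates ion channels and transporters. It was at 55.6, 57.1 and 53.5 CPM in the single-housed and at 57.8, 51.5 and 53.7 CPM in the group-housed libraries. Its highest-to-lowest ratio over the 6 libraries was 1.12, the smallest of the 10 genes, and the log2 difference was 0.028 (SE 0.0724, fold interval 0.910 to 1.14). The 3 striatum-rich libraries, which also held the most oligodendrocyte marker RNA, were the 3 highest for Sgk1, the reverse of Crhr1. With the striatal covariate the Sgk1 difference was −0.0078 (SE 0.0773).

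**Figure D3:**
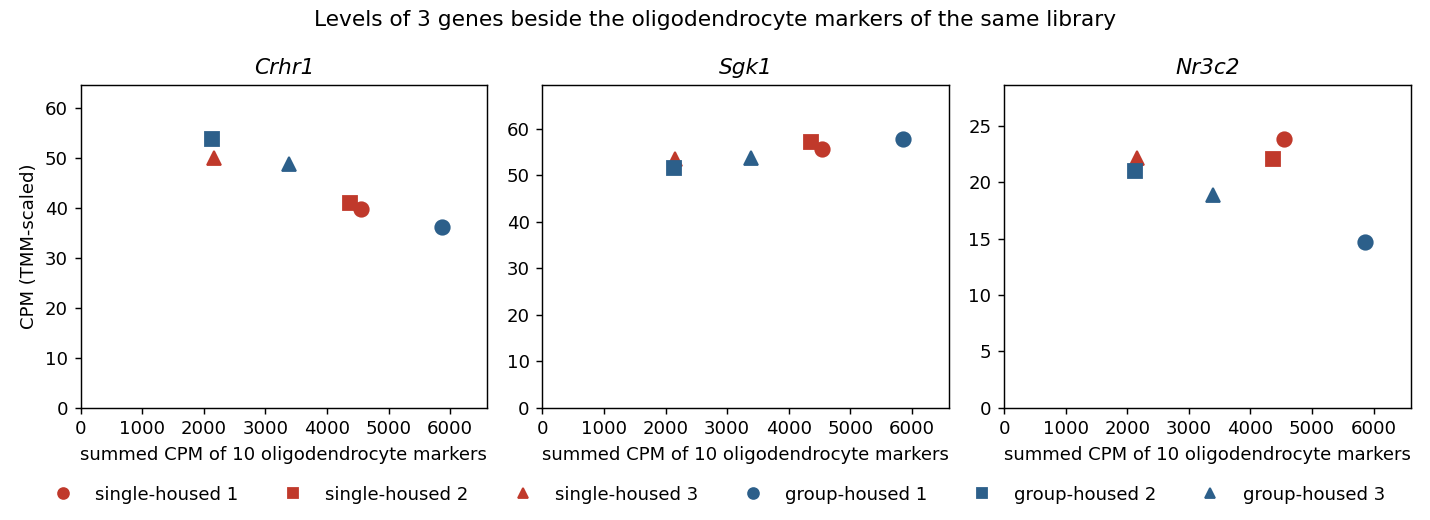
CPM of Crhr1, Sgk1 and Nr3c2 in each library (linear axis from 0) against the summed CPM of 10 oligodendrocyte markers in the same library, with single-housed libraries in red and group-housed in blue. Crhr1 is lowest and Sgk1 highest in the 3 libraries with sums of 4368 to 5863 CPM. Nr3c2 sits at 22.1 to 23.9 CPM in all 3 single-housed libraries. In the group-housed libraries Nr3c2 is at 21.0, 18.9 and 14.7 CPM, at sums of 2130, 3390 and 5863 CPM.

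Tsc22d3 (chromosome X, 137074068 to 137135061, minus strand) encodes GILZ, a leucine zipper protein that carries part of the anti-inflammatory action of glucocorticoids. It was at 57.9, 61.5 and 59.5 CPM in the single-housed and at 62.2, 59.0 and 66.6 CPM in the group-housed libraries. The groups overlapped, with group-housed replicate 3 the highest, and the log2 difference was −0.070 (SE 0.0718, fold interval 0.851 to 1.07). The upper ends of the unadjusted intervals were 1.21-fold for Fkbp5, 1.14-fold for Sgk1 and 1.07-fold for Tsc22d3, and rises within these limits remain possible.

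Cdkn1a (chromosome 17, 29227931 to 29237667, plus strand) encodes the cell cycle inhibitor p21, which answers to the glucocorticoid receptor and to several other signals, p53 among them. It was at 30.1, 24.0 and 29.3 CPM in the single-housed and at 27.5, 41.7 and 42.5 CPM in the group-housed libraries. Group-housed replicates 2 and 3 stood above the other 4 libraries, while group-housed replicate 1 lay within the single-housed range. The log2 difference was −0.42 (SE 0.167, fold 0.746, interval 0.573 to 0.971, edgeR adjusted p = 1). Within the striatum-rich libraries the values were 30.1 and 24.0 CPM in the single-housed against 27.5 CPM in the group-housed library, so the difference was seen in the other 3 libraries alone, at 29.3 CPM against 41.7 and 42.5 CPM.

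Sult1a1 (chromosome 7, 133816384 to 133819871, minus strand) encodes a phenol sulfotransferase and had the lowest level of the 10 genes. It was at 3.79, 4.15 and 4.56 CPM in the single-housed and at 4.32, 6.84 and 5.33 CPM in the group-housed libraries, from 124 to 152 counts and 115 to 209 counts per library. The groups overlapped through group-housed replicate 1. The log2 difference was −0.40 (SE 0.180, fold interval 0.570 to 1.004), and it was −0.215 without group-housed replicate 2 and −0.25 (SE 0.163) with the striatal covariate.

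**Figure D4:**
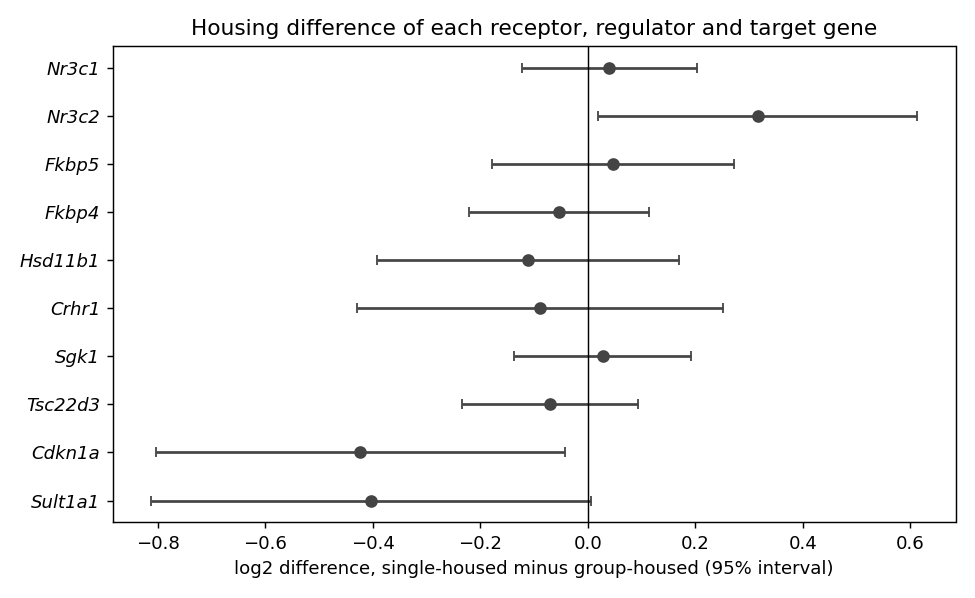
Fitted log2 difference (single-housed minus group-housed) of the 10 genes with its 95% interval from edgeR's quasi-likelihood fit, not adjusted for the number of genes. The intervals of Nr3c2 (0.02 to 0.61) and Cdkn1a (−0.80 to −0.04) leave out 0, and the other 8 include it.

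Per kilobase of exon, the levels over the 6 libraries spanned a wide range. Fkbp4 averaged 63.2 RPKM (CPM per kilobase of exon), above 92.7% of tested genes, followed by Tsc22d3 at 24.6 RPKM. Crhr1 at 18.5, Nr3c1 at 17.0 and Cdkn1a at 16.1 RPKM came next, with ranges that overlapped between neighbours. Cdkn1a was above Sgk1, at 13.2 RPKM, in 4 of 6 libraries. Hsd11b1 at 9.59 and Fkbp5 at 9.55 RPKM did not differ beyond their spread. Nr3c2 at 5.001 RPKM was above Sult1a1 at 3.53 RPKM in 6 of 6 libraries, although their ranges overlapped. Glucocorticoid receptor transcript thus exceeded mineralocorticoid receptor transcript in every library.

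Beyond these 10, a list of 27 other genes known to be induced by glucocorticoids in brain or other tissues leaned to lower levels in single-housed mice. Of the 26 tested, 25 had a lower and 1 a higher fitted level, with a median log2 difference of −0.145, against 49.3% of all tested genes lower and a median of 0.0015. The genes were read from the same libraries and are not independent, so their number does not replicate the housing comparison. The list was also chosen with earlier results of these data known. None passed over all genes in edgeR's quasi-likelihood test, and 3 had an unadjusted p under 0.05, namely Gjb6 and Fam107a (lower) and Usp2 (higher). The groups did not overlap for these same 3 genes, 2 lower and 1 higher. Over all genes tested, 1.56% had an unadjusted p under 0.05 in edgeR's quasi-likelihood test. The groups did not overlap for 4.86% of them (2.46% higher and 2.4% lower). Without single-housed replicate 3 the median was −0.077. Under the alternatives tried, between 19 and 26 of the list were fitted lower. The list sum was 2906, 2787 and 2839 CPM in the single-housed and 3116, 2872 and 3120 CPM in the group-housed libraries, which overlapped. Of each sum, Glul alone made up between 1158 and 1435 CPM. The mean log2 CPM of the list, which weights each gene alike, was 4.565, 4.677 and 4.56 in the single-housed libraries. In the group-housed libraries it was 4.707, 4.739 and 4.788, so these means did not overlap. No test was run on either summary.

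Gjb6, the connexin 30 gene of astrocytes, was at 40.1, 42.1 and 47.2 CPM in the single-housed and at 51.2, 50.5 and 55.0 CPM in the group-housed libraries (log2 difference −0.28, SE 0.0832). Fam107a, an actin-binding protein gene with a loose match to the element in its start region, was at 352, 307 and 347 CPM in the single-housed and at 372, 397 and 390.3 CPM in the group-housed libraries (−0.21, SE 0.0779). Astrocyte markers (9 genes) summed to between 3751 and 4109 CPM in the single-housed and between 3898 and 4008 CPM in the group-housed libraries, with overlapping sums. Of these 9 genes, 6 were fitted higher and 3 lower in the single-housed mice, with Gja1 the lowest (−0.135). The part of astrocyte content in the Gjb6 and Fam107a values was not tested. Usp2, a deubiquitinase gene with a daily rhythm, was at 106, 109 and 110.2 CPM in the single-housed and at 86.6, 103 and 96.2 CPM in the group-housed libraries (0.19, SE 0.0791).

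Other classical targets varied more within groups. Dusp1, a phosphatase gene that also belongs to the rapid neuronal activity response, was at 12.4, 26.7 and 21.3 CPM in the single-housed and at 47.6, 25.2 and 25.5 CPM in the group-housed libraries (−0.70, SE 0.312). Per1, a clock gene with hormone-responsive and activity-responsive control, was at 80.6, 113 and 109.7 CPM against 111, 104 and 146 CPM in the same order of libraries (−0.25, SE 0.160). Klf9 and Zbtb16, transcription factor genes induced by the receptor, had differences of −0.021 (SE 0.135) and −0.18 (SE 0.257). Dusp1 was high in 1 group-housed library, replicate 1, and its difference was −0.33 without that library, −0.45 without single-housed replicate 1 and −0.25 without the 3 striatum-rich libraries. Per1 was high in group-housed replicate 3, and its difference was −0.084 without that library and −0.11 without single-housed replicate 1. Beside these, the 19 immediate early genes of neuronal activity were all fitted lower in the single-housed mice, against 49.3% of all tested genes. Of the 19, 14 had an unadjusted p under 0.05 in edgeR, against 0.727% of all tested genes on the lower side. None passed the adjusted threshold in edgeR with all libraries. The list summed to 1106, 1080.2 and 1038 CPM in the single-housed and to 1800.3, 1586 and 1695 CPM in the group-housed libraries. The genes of smallest p in that list were Fosb (−0.71, SE 0.0941), Egr2 (−1.74, SE 0.250) and Egr4 (−0.85, SE 0.146), all transcription factor genes, and Fos had a difference of −1.42 (SE 0.265). DESeq2 called these 4 genes lower, with adjusted p of 3.06e-05 for Fosb, 4.47e-08 for Egr2, 0.000114 for Egr4 and 1.38e-05 for Fos, and edgeR called Egr2 without group-housed replicate 2 (−1.99, adjusted p = 0.0134). The part of neuronal activity in the lower levels of shared targets was not tested.

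**Figure D5:**
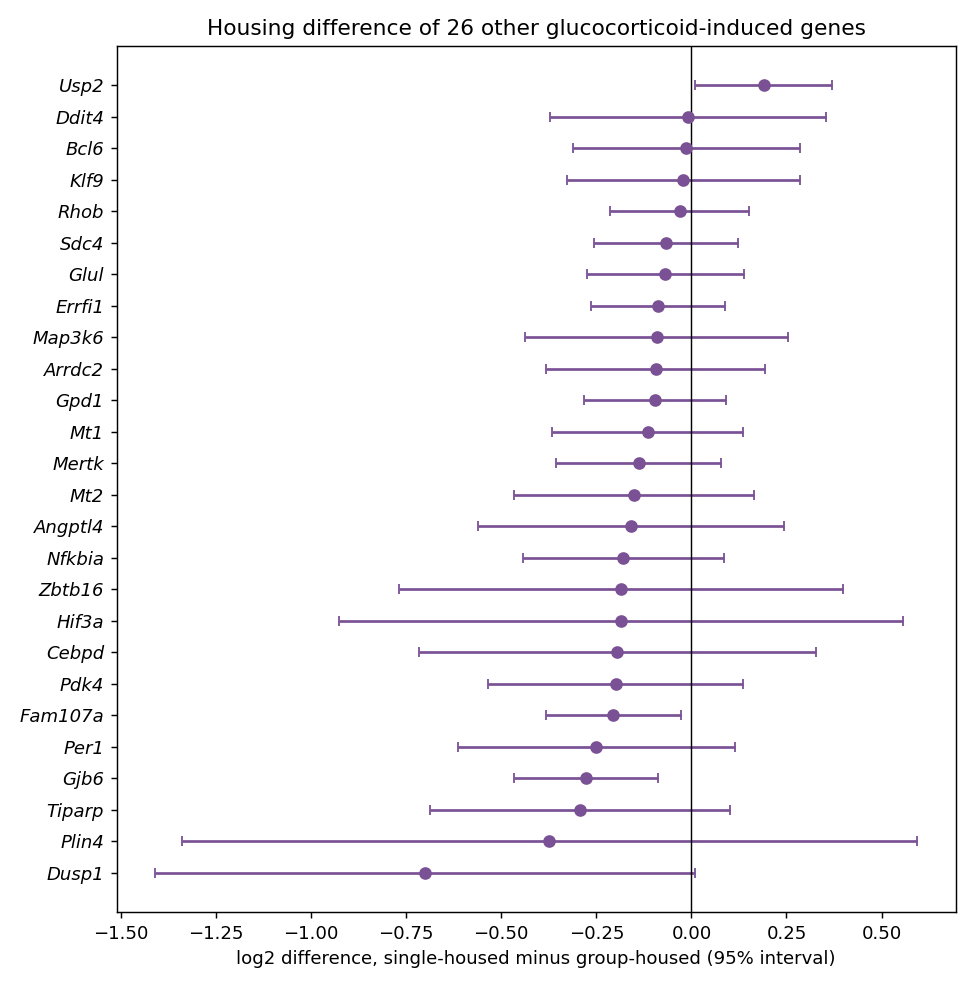
Fitted log2 difference (single-housed minus group-housed) of 26 other glucocorticoid-induced genes with its 95% interval, not adjusted for the number of genes, ordered from highest to lowest. Usp2 is the 1 gene right of 0, the other 25 lie left of it, and most intervals include 0.

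Supporting genes of the pathway showed no call in either direction with edgeR's quasi-likelihood test. Of 15 receptor chaperones, 3 were fitted higher and 12 lower, with a median of −0.047. Those of smallest p were the heat shock protein 40 gene Dnajb1 (−0.16, SE 0.0891), the co-chaperone gene of the mature receptor complex Ptges3 (−0.099, SE 0.1003) and the HSP70-interacting gene St13 (0.078, SE 0.0793). Of 13 transcriptional coregulators, 11 were higher and 2 lower by small amounts (median 0.043), among them the acetyltransferase gene Ep300 (0.10, SE 0.136), the coactivator gene Ncoa1 (0.072, SE 0.109) and the deacetylase gene Hdac3 (−0.040, SE 0.0679). In neither list did any gene reach an unadjusted p under 0.05.

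For steroid metabolism and transport, 8 of 11 genes were tested, 6 higher and 2 lower. Cyp11a1, the side-chain cleavage enzyme gene, differed by −0.20 (SE 0.175), H6pd, which supplies the cofactor of the Hsd11b1 enzyme, by 0.14 (SE 0.136), and Akr1c14, a ketosteroid reductase gene, by 0.17 (SE 0.235). Of 13 genes of the corticotropin-releasing hormone system and related peptides, 7 were tested, 5 higher and 2 lower, and 6, Ucn and Avp among them, had at most 7 counts in any library. Crhr2, the second receptor gene, differed by 0.38 (SE 0.260), the vasopressin receptor gene Avpr1a by 0.52 (SE 0.449), and Crhbp, which encodes the binding protein that sequesters the hormone, by −0.10 (SE 0.113).

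Related receptors and paralogs gave no call either. Of the other steroid receptor genes, Esr1 (oestrogen) and Pgr (progesterone) differed by 0.091 (SE 0.262) and −0.031 (SE 0.126), and Esr2 was too low to test. Of 14 tested paralogs of the 10 genes, 8 were higher and 6 lower with a median of 0.011, and Sgk3, a kinase close to Sgk1 (0.17, SE 0.113), Fkbp1b, an immunophilin gene (−0.13, SE 0.101), and Cdkn1c, a cell cycle inhibitor gene (−0.22, SE 0.214), had the smallest p.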

How the data were processed

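Libraries of 3 single-housed and 3 group-housed samples were grouped by their labels. Per the labels' protocols, column-purified RNA went into TruSeq Stranded mRNA libraries, which select polyadenylated RNA. The submitters' processing notes name FastQC, STAR, featureCounts and build mm9. No source used here gives their versions, the annotation release or the strand setting. The authors deposited raw counts of reads per gene with exon length, without normalization. None of the 10 genes shares exon bases with another row of the deposited table. Among the other pathway genes Cebpd, Dnaja1, Fkbp3, Ncor1, Plin4 and Tiparp do.

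The counts were tested with edgeR 4.0.16 (R 4.3.3): TMM, filterByExpr (minimum count 10, minimum total 15), quasi-likelihood F-test, Benjamini-Hochberg adjustment over 15258 genes, threshold 0.05. Standard errors and 95% intervals derive from the F statistic. Levels are CPM on TMM-scaled totals, and RPKM for levels between genes. Ratios were compared by exact permutation over libraries. Total counts of 25858355 to 33428512 set the counting error, between 1.53% and 8.13% for the 10 genes. No 2 libraries agreed within sampling noise (chi-square per degree of freedom 8.21 to 38.7). The procedure was checked on simulated counts. Alternatives were DESeq2 size factors, no filter, a mean CPM above 1, leaving out libraries, the replicate block, DESeq2 1.42.0, limma-voom (limma 3.58.1) and the striatal marker mean as a covariate.

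The 10 genes, the lists and the naming rule (all 10 genes, 11 further genes by name, and the 3 of smallest p per list) were chosen with earlier results of these data known. Not every gene under that rule is reported here. Start regions are RefSeq windows of GRCm38.p6 and no coordinate was moved between builds.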

Additional observations from a re-analysis of the deposited data

How the results depend on the processing

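None of the 10 genes was called under any of the 14 alternatives, and their median log2 difference stayed between −0.062 and −0.027. Of 140 values of the 10 genes under the alternatives, 132 kept their direction, and the 8 others belonged to Nr3c1, Fkbp5, Sgk1, Crhr1 and Hsd11b1. Over all genes, where 0 were called, DESeq2 called 8, leaving out the 3 striatum-rich libraries gave 4, and leaving out single libraries gave 0 to 1 (1 without group-housed replicate 1 and 1 without group-housed replicate 2). Titles number the replicates 1 to 3 in both groups, but same-numbered libraries did not deviate together (correlations 0.27, −0.32 and 0.17 across genes) and not every library was closest to its own number. With the replicate block 0 genes were called, the ratio of Nr3c2 to Nr3c1 kept its log2 difference of 0.29 (exact sign-flip p = 0.25, the smallest 3 pairs allow), Crh was at −0.0050, and no call changed.

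Leaving out 1 library at a time gave 0.19 to 0.39 for the log2 ratio of Nr3c2 to Nr3c1 and −0.0049 to 0.17 for that of Fkbp5 to Fkbp4. It gave −0.14 to −0.077 for the median of the other glucocorticoid-induced genes, the value nearest 0 being without single-housed replicate 3. For single genes the same ranges crossed 0, at −0.0048 to 0.076 for Nr3c1, −0.034 to 0.11 for Fkbp5, −0.0082 to 0.076 for Sgk1 and −0.24 to 0.035 for Crhr1. They also did at −0.032 to 0.37 for Akr1c14, −0.13 to 0.21 for Crh, −0.16 to 0.018 for Crhbp, −0.015 to 0.25 for Ep300, −0.13 to 0.26 for Esr1, −0.17 to 0.10 for Klf9, −0.035 to 0.19 for Ncoa1, −0.17 to 0.063 for Pgr and −0.45 to 0.17 for Zbtb16.

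Without the 3 striatum-rich libraries, which leaves 1 library against 2 and assumes that the lone one varies like the others, the log2 ratio of Nr3c2 to Nr3c1 was 0.11 and the sign turned for the ratio of Fkbp5 to Fkbp4 (−0.034) and for Fkbp5 (−0.14), Hsd11b1 (0.11), Avpr1a (−0.38), Cdkn1c (0.14), Crhbp (0.11), Cyp11a1 (0.13), Ep300 (−0.13), Fkbp1b (0.058), H6pd (−0.037), Hdac3 (0.027), Ncoa1 (−0.074) and Ptges3 (0.060). With the striatal covariate it turned for Sgk1 (−0.0078), Crhr1 (0.074), Klf9 (0.047), Pgr (0.060) and Zbtb16 (0.015), and with limma-voom for Crh (−0.016). The cause was not tested. The common biological coefficient of variation was 11.8%. Counting error was below it for each of the 10 genes but reached 13.7% for Esr1, 15.1% for Akr1c14, 16.7% for Crhr2 and 33.0% for Avpr1a, where depth limits the precision.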

Other observations

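Most tested genes varied more among group-housed than among single-housed libraries. The coefficient of variation of CPM, from 3 libraries per group, was larger in the group-housed set for 67.9% of all tested genes. The same held for 9 of the 10, Hsd11b1 being the exception. For Nr3c2 the coefficient was 4.53% with single and 17.6% with group housing, for Cdkn1a 11.95% and 22.6%, and for Sult1a1 9.27% and 23.1%. Group-housed replicates 1 and 2 were the least alike pair of libraries (chi-square per degree of freedom 38.75), and group-housed replicate 1 had the lowest total count. Their part in this spread was not tested.

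Patterns over the 6 libraries were matched against 13782 genes with a mean CPM above 1, as a description without a test, since with 6 points many genes can follow any pattern. Closest to Nr3c2 were Rgs14 (Pearson r = 0.995), Col4a5 (0.986) and Nrp2 (0.986). Without the 2 libraries farthest from the median of Nr3c2 these values were 0.991, 0.823 and 0.881. Closest to Nr3c1 were Aebp1 (0.998), Ube3c (0.997) and Dnajb4 (0.994), closest to Fkbp5 were Ints5 (0.993), Baz1a (0.990) and Smc1a (0.989), closest to Sgk1 were Ldb3 (0.994), Nmnat3 (0.994) and S100a4 (0.993), and closest to Tsc22d3 were Il17d (0.992), Cept1 (0.991) and Ostc (0.987). For Sgk1 401 genes had an r above 0.9, the most of the 5, and for Tsc22d3 139, the fewest.

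The marker lists gave further levels of the other cell types. Microglia markers (10 genes) summed to between 529 and 542 CPM in the single-housed and between 504 and 639 CPM in the group-housed libraries. Endothelial markers (10 genes) summed to between 199 and 241 CPM in the single-housed and between 193 and 216 CPM in the group-housed libraries. Fibroblast markers (8 genes) summed to between 123 and 137 CPM against between 86.2 and 135 CPM, and inhibitory neuron markers (5 genes) to between 902 and 981 CPM against between 887 and 1011 CPM. Choroid plexus markers (7 genes) summed to between 2.64 and 7.47 CPM against between 3.21 and 3.76 CPM, and erythrocyte markers (3 genes) to between 1.43 and 5.43 CPM against between 1.67 and 17.4 CPM, single-housed first in each pair. No gene of these lists was at 0 in every library. The striatal gene Ppp1r1b was at 426, 190 and 64.8 CPM in single-housed and 214, 66.2 and 88.9 CPM in group-housed replicates 1, 2 and 3, and the myelin gene Mbp at 1392, 1262 and 622 CPM in single-housed and 1738, 629 and 975 CPM in group-housed replicates.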
